A study of Mus musculus with 4 samples.

Results

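Accessible chromatin was described at 10 collagen genes of basement membranes and of fine matrix networks in cultured mouse chondrocytes. The genes were Col4a1, Col4a2, Col6a1, Col6a2, Col6a3, Col8a1, Col12a1, Col14a1, Col15a1 and Col18a1, 10 of 21896 protein-coding genes in the RefSeq table of GRCm38.p6, the assembly also called mm10. Every ATAC-seq peak in a gene or within 50 kb of it was taken. Peaks that overlapped by at least 1 bp in any of the 4 libraries were joined into one site, which gave 280 sites at these genes out of 172311 in the genome. The chondrocytes came from knee cartilage of C57BL/6 pups of 0 to 4 postnatal days. The P0 cells had spent under 24 h in culture, and the P8 cells had been passaged 8 times, each time after the culture had doubled from 24000 to 48000 cells per cm2. Passage 0 and passage 8 had 2 libraries each. The peak lists separated the libraries of a passage without giving replicate numbers, and they are called library A and library B. No source used here stated whether the libraries of a passage came from separate animals, so p-values measure only the spread between these libraries. The comparison asks how accessibility at these genes differed between fresh and dedifferentiated chondrocytes.

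Collagens are triple helices of 3 alpha chains, and these genes encode chains that build sheets, filaments and bridges rather than the thick fibrils of cartilage, which are made of type II collagen. Type IV collagen, from Col4a1 and Col4a2, forms the mesh of basement membranes. Type VI collagen, from Col6a1, Col6a2 and Col6a3, forms beaded filaments that are dense around chondrocytes in the pericellular matrix. Type VIII collagen forms hexagonal lattices, types XII and XIV sit on the surface of fibrils, and types XV and XVIII are basement membrane collagens that also carry heparan or chondroitin sulphate chains. Cartilage has no vessels, and cultured chondrocytes are known to lose type II collagen and to gain fibroblast-type collagens with passage.

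In ATAC-seq the transposase Tn5 inserts adapters where DNA is open, and the authors called peaks in each library with MACS2. The fold enrichment of a peak is the pileup of tags at its summit divided by the local background, with 1 tag added to both. The libraries held 89610 to 145703 peaks. The genome-wide background, read in tags from the low end of the local backgrounds of the peaks, was 1.42 (A) and 1.18 (B) for the P0 libraries against 1.02 (A) and 0.979 (B) for the P8 libraries. Both P0 libraries were thus deeper than both P8 libraries. The part of depth in the differences in peak number and length was not tested beyond a repeat at matched background, given below. At the sites with a peak in all 4 libraries the median log2 fold enrichment was 3.05 and 3.02 in the P0 libraries against 2.69 and 2.84 in the P8 libraries, a shift of 0.27 between the passages. Differences in fold enrichment are therefore given after each library was centred on its median, that is, relative to this shift. In a mixed culture, a site that is open in fewer cells and a site that is less open in each cell cannot be told apart. Peaks within 1 kb of the start (or of a gene end where no start was listed) were also read at markers of cell types. All 4 libraries had such a peak at 8 of 10 chondrocyte markers, Col2a1 and Acan among them. The same held at 4 of 6 fibroblast markers, Col1a1 among them. Over all 21262 listed starts of protein-coding genes this share was 58.6%, so such a peak alone does not identify a cell type. Such a peak in both P0 libraries and in neither P8 library was found at 1 gene each of the chondrocyte (Matn1), fibroblast (Pdgfra), pericyte (Notch3), macrophage (Cd68) and muscle (Des) markers. Of the markers of other cells, all 4 libraries had a peak at 2 of 5 endothelial (Kdr and Tek), 3 of 4 pericyte, 1 of 5 macrophage, 1 of 3 red blood cell and 1 of 3 muscle genes. No library had a peak at the other endothelial genes, Pecam1, Cdh5 and Emcn. The part of such cells in the results was not tested.

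Peaks were more numerous at P0 than at P8 over the 10 genes as a whole. P0 library A held 255 peaks in these windows, P0 library B 211, P8 library A 149 and P8 library B 163. The means were 233 ± 31.1 (SD, n = 2) and 156 ± 9.90 (SD, n = 2), a ratio of 1.49 ± 0.22. The ranges did not overlap, but 2 libraries against 2 cannot give a p below 0.333 in an exact two-sided permutation test, and this was the p obtained. The ratio over all peaks of the genome was 1.40. Per 10000 peaks of a library, the windows held 17.5 and 17.6 at P0 against 16.6 and 16.3 at P8, a ratio of 1.06 ± 0.014.

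The genes differed in this ratio. For comparison, the median ratio over 13207 gene windows with a mean of at least 8 peaks was 1.29, with quartiles of 1.11 and 1.52. Col15a1, which encodes a basement membrane collagen, had 34 and 24 peaks in the P0 libraries against 13 and 14 in the P8 libraries. Its ratio of 2.15 ± 0.54 was above that of 96.4% of gene windows. Col18a1, the other gene of its family, had 34 and 31 peaks against 16 and 20, a ratio of 1.81 ± 0.31, above 90.0% of gene windows. Col4a1 had 35 and 34 peaks against 23 and 18, and Col4a2 had 50 and 44 against 29 and 30, ratios of 1.68 ± 0.29 and 1.59 ± 0.15. At these 4 genes the P0 libraries lay above the P8 libraries without overlap, as they did at Col6a3, Col8a1 and Col14a1 with smaller ratios. The same order held for the peaks of the whole genome, 145703 and 119974 at P0 against 89610 and 99784 at P8. The share of all gene windows without overlap was not counted.

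At the other end stood Col6a2, with 10 and 8 peaks at P0 against 12 and 10 at P8, a ratio of 0.82 ± 0.17 that was above 1.70% of gene windows. Col12a1 had 19 and 13 peaks at P0 against 15 and 16 at P8, a ratio of 1.03 ± 0.28. The ranges of the passages overlapped at both genes and at Col6a1, which had 13 and 11 peaks against 8 and 11. Col6a3 had 28 and 24 against 16 and 23, Col8a1 19 and 18 against 13 and 14, and Col14a1 33 and 22 against 18 and 18, with ratios of 1.33, 1.37 and 1.53. The SD of the ratio ran from 0.09 to 0.54 on 2 libraries a passage, and the ratios of neighbours in this order were closer than the larger of their SDs. Per 10000 peaks of a library, Col15a1, Col18a1 and Col4a2 remained higher at P0 without overlap (ratios 1.52 ± 0.17, 1.30 ± 0.14 and 1.14 ± 0.08), and Col6a2 and Col12a1 were lower at P0 without overlap (ratios 0.58 ± 0.12 and 0.73 ± 0.10). Each of these had the smallest p that the exact permutation test allows, 0.333. How many gene windows of the genome lack overlap per 10000 peaks was not counted.

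**Figure D1:**
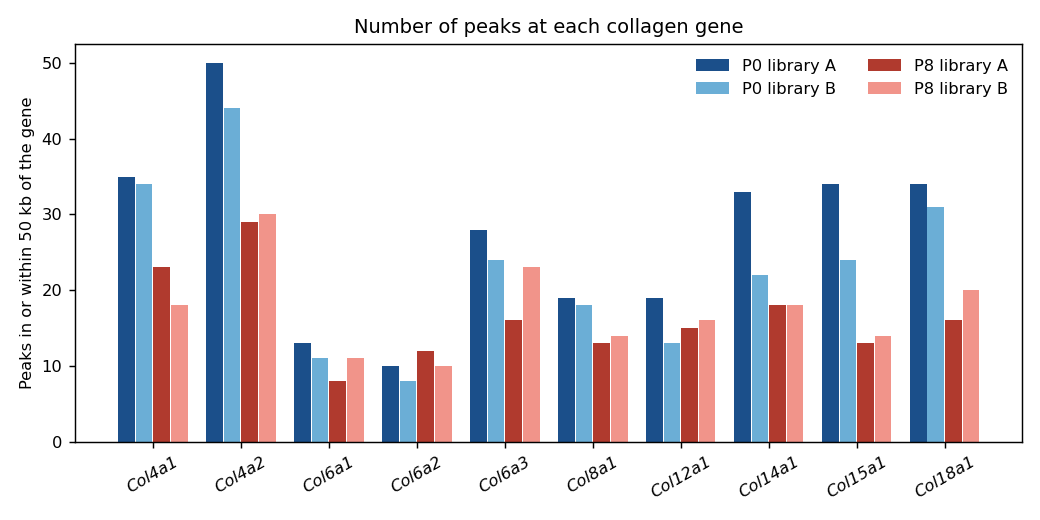
Number of MACS2 peaks in or within 50 kb of each gene (y axis, peaks), with 1 bar for each library. The P0 bars stand above the P8 bars at every gene except Col6a1, Col6a2 and Col12a1, and at Col6a2 the counts are 10 and 8 at P0 and 12 and 10 at P8.

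Of the 280 sites, 98 (35.0%) had a peak in all 4 libraries, 36 (12.9%) in 3 libraries, 66 (23.6%) in 2 and 80 (28.6%) in 1. Over all sites of the genome these shares were 32.4%, 11.3%, 23.2% and 33.1%. At 53 sites both P0 libraries and neither P8 library had a peak, which is 18.9% against 17.0% over the genome. The reverse pattern was found at 3 sites, which is 1.07% against 1.84% over the genome. These shares at the 10 genes were near those of the genome. The count at P0 alone was 101 in place of 53 when P0 library B was left out, and the count at P8 alone was 9 without P0 library A, 12 without P8 library A and 17 without P8 library B. The shares over the genome with 1 library left out were not counted. Of the sites with a peak in 1 library, 48 were in P0 library A, which is the deepest, and from 9 to 14 in each of the others. Over the genome, 30144 of 56987 such sites were in P0 library A. The sites seen at P0 alone were weaker and narrower than the shared sites, with a median mean fold enrichment of 5.24 and a median width of 243 bp, against 7.68 at P0 and 430 bp for the sites in all 4 libraries. Both differences follow in part from how the classes were made. A merged site spans the peaks of every library that holds one, and a peak in all 4 libraries selects stronger sites.

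By gene, the sites with peaks in both P0 libraries alone ranged from 0 of 12 at Col6a2 to 11 of 38 at Col4a1. Col18a1 had 9 of 36, Col14a1 8 of 34, Col15a1 8 of 35 and Col4a2 11 of 53. Col6a3 had 5 of 33, Col8a1 3 of 25, Col12a1 2 of 25 and Col6a1 1 of 12. The windows of Col4a1 and Col4a2 share 21 sites, since the 2 genes overlap by 85 bp, and those of Col6a1 and Col6a2 share 2. With each peak rescaled to the lowest background of the 4 libraries and weaker peaks dropped, 270 sites were left. Of these, 52 (19.3%) were seen at P0 alone and 3 (1.11%) at P8 alone, against 16.9% and 2.04% over the genome. By position, 27 of the 53 sites at P0 alone lay in a gene body, 25 in the flanks and 1 at a start. They made up 37 of 228 sites whose nearest gene was one of the 10 (16.2%) and 16 of 52 sites nearest to another gene (30.8%).

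**Figure D2:**
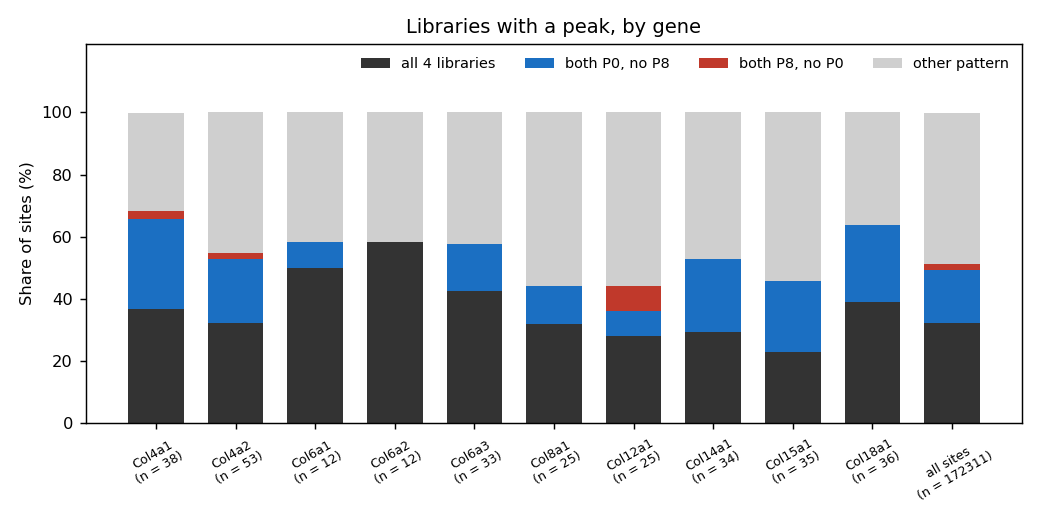
Share of sites (y axis, %) by the libraries that held a peak, for each gene and for all sites of the genome, with the number of sites under each bar. The share seen at P0 alone runs from 0% at Col6a2 to 28.9% at Col4a1, against 17.0% over the genome.

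The 3 sites seen at P8 alone lay inside Col4a2 and Col12a1. Col12a1, whose product sits on collagen fibrils, had 2 of them. At chr9:79618454-79618769 the fold enrichment was 7.83 in P8 library A and 6.16 in library B, and at chr9:79680672-79681212 it was 5.88 and 5.46. In Col4a2, chr8:11339040-11339216 had 4.76 and 6.08. Neither P0 library had a peak at any of them. The strongest sites seen at P0 alone included chr8:11405763-11406134 inside Col4a2, with 7.49 in P0 library A and 9.37 in library B, and chr4:47318540-47318757 beyond the upper end of Col15a1, with 7.45 and 7.78. Near Col6a1, chr10:76701449-76702002 had 8.27 and 6.79. Inside Col18a1, chr10:77056567-77057598 was over 1000 bp wide in both P0 libraries (1032 and 1019 bp), with a fold enrichment of 6.14 and 6.30. In the Col8a1 window, chr16:57669417-57669681 in the gene body had 5.38 and 7.78, and chr16:57593845-57594067 at the neighbouring gene Cmss1 had 8.28 and 6.87. At the fibril-associated genes, the values of such sites included 5.10 and 5.59 at chr9:79608881-79609065 in Col12a1 and 4.97 and 6.87 at chr15:55425004-55425285 in Col14a1. In Col4a1, chr8:11253604-11253846 had 6.62 and 6.41, and in the flank of Col6a3, chr1:90738082-90738480 had 4.14 and 6.95.

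**Figure D3:**
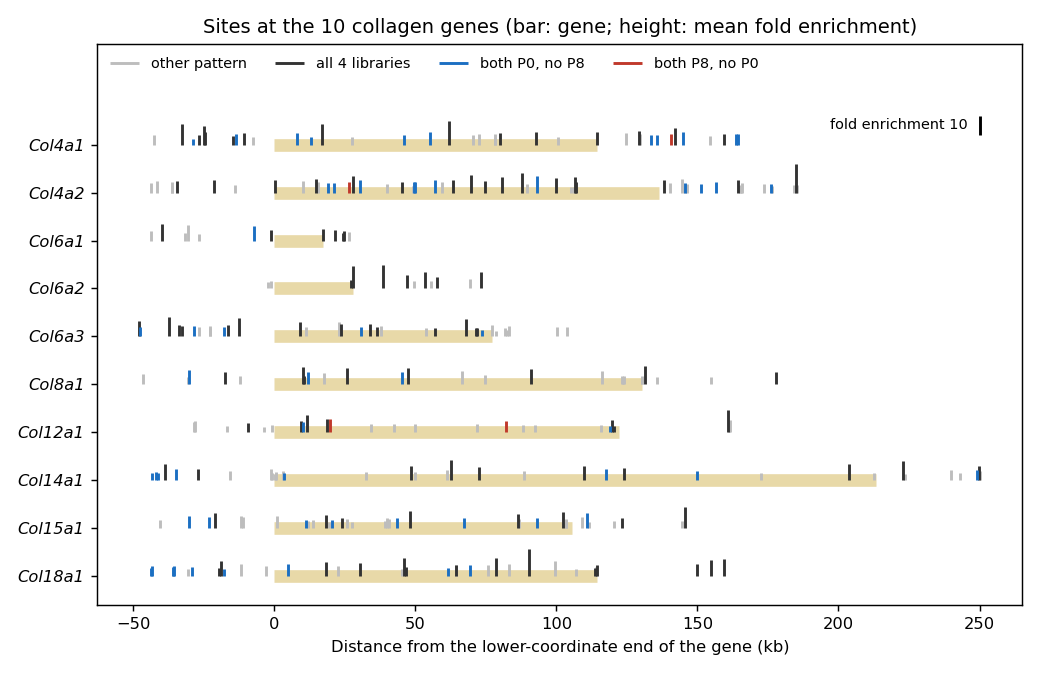
Position of every site relative to the lower-coordinate end of its gene (x axis, kb), with the gene as a bar and the height of each line giving the mean fold enrichment of the peaks at the site. Sites at P0 alone (blue) lie in and around 9 of the 10 genes, and the 3 sites at P8 alone (red) lie inside Col4a2 and Col12a1. Sites in the shared part of the Col4a1 and Col4a2 windows are drawn on both rows.

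RefSeq listed 10 starts for 8 of the 10 genes, 2 each for Col6a2 and Col18a1. Within 1 kb, 7 of the 10 starts had a peak in all 4 libraries (70.0%), against 58.6% of 21262 listed starts of protein-coding genes. The 7 starts are not separate regions. Those of Col4a1 and Col4a2 share 1 site, and the 2 starts of Col6a2, 226 bp apart, share theirs. The bases before a start, up to 250, are shown for 5 genes from the RefSeq table of GRCm38.p6, so that the start regions of the type VI genes can be read beside those of Col8a1 and Col18a1. They are reference sequence on the strand of the gene, 5′ to 3′, and all 5 genes lie on the minus strand. Each ends at the base before the gene's span, which is the base before the listed start except at Col6a3, where the span reaches beyond the listed start and 220 bases are shown. Capitals mark matches to any of the motifs searched on both strands, namely AP-1 (TGANTCA), the CCAAT box (CCAAT), the GC box (GGGCGG), the TATA box (TATAAA), RUNX (TGTGGT), TEAD (GGAATG), SOX (ACAAT) and ETS (CCGGAAG). Matches to different motifs did not overlap.
Col6a1, chr10:76726045-76726294: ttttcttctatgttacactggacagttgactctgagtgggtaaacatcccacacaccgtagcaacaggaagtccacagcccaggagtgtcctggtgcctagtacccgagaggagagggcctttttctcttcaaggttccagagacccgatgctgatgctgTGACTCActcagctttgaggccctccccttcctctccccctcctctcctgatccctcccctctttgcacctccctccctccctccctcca
Col6a2, chr10:76623631-76623880: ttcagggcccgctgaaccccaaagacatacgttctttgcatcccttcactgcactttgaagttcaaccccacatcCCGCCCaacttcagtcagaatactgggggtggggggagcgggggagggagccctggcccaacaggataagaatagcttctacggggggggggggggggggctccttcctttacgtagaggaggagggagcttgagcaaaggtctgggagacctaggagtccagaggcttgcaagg
Col6a3, chr1:90844002-90844221: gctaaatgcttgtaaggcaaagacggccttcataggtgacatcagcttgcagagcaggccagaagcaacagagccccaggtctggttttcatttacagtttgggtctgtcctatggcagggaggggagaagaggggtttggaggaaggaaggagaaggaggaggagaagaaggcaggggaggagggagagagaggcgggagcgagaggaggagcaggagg
Col8a1, chr16:57754738-57754987: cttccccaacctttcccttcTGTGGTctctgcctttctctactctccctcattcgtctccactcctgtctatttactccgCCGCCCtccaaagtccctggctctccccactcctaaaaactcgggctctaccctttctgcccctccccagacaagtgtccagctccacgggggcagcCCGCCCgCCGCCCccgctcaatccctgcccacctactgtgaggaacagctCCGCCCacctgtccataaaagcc
Col18a1, chr10:77166531-77166780: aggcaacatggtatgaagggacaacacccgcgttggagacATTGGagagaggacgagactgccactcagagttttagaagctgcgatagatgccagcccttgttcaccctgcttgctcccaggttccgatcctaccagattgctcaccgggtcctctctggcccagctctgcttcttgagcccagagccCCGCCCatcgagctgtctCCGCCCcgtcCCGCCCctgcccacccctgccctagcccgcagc

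Only the Col6a1 start held an AP-1 match among the 10 starts, 90 to 84 bases before the start, against 6.13% of all listed starts. RUNX matches lay before the starts of Col8a1 and the inner start of Col18a1 (12.4% of all starts), and TEAD matches before the inner starts of Col6a2 and Col18a1 (11.7%). GC boxes were found at 5 of 10 starts (42.6% of all starts) and CCAAT boxes at 3 of 10 (35.4%), those of Col4a1, Col4a2 and the outer start of Col18a1. No TATA box, SOX or ETS match was found in these windows, and these motifs were held by 11.6%, 25.1% and 8.98% of all starts. A match of so few letters is a description of the sequence and not a binding site. The 250 bases were richest in G and C at Col4a1 and Col4a2, with 74.4% and 73.6% and 31 and 26 CG pairs, against medians of 55.6% and 10 pairs over all starts. The other 8 starts had 53.6% to 64.4% and 3 to 14 CG pairs.

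Col4a1 (gene ID 12826, chr8:11198423-11312889, minus strand) and Col4a2 (gene ID 12827, chr8:11312805-11449287, plus strand) run in opposite directions from starts 21 bp apart. The merged site chr8:11312368-11313571 covers both starts and had a peak in all 4 libraries, of which both P0 peaks and that of P8 library B reached over the starts themselves and that of P8 library A did not. Its fold enrichment was 7.43 and 7.03 at P0 against 6.06 and 5.25 at P8. Both P0 values were above both P8 values, but relative to the shift between the passages the log2 difference was only 0.09 ± 0.20 (SE), with an adjusted p of 0.827 (limma over 55890 sites, Benjamini-Hochberg). Its peaks covered 1185 and 753 bp in the P0 libraries against 429 and 542 bp in the P8 libraries, and the difference in length missed the threshold too (adjusted p = 0.155).

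The starts of the type VI genes differed among themselves. Col6a2 (gene ID 12834, chr10:76595756-76623630) had the strongest start of the 10 genes, at chr10:76623231-76623742, with 13.1 and 13.3 at P0 and 8.99 and 10.8 at P8. The difference relative to the shift was 0.15 ± 0.15 on the log2 scale (adjusted p = 0.533). Col6a1 (gene ID 12833, chr10:76708792-76726044), whose window with the AP-1 match is printed above, had 6.68 and 7.22 at P0 and 5.52 and 4.84 at P8 at chr10:76725828-76726357 (0.15 ± 0.20, adjusted p = 0.670). Col6a3 (gene ID 12835, chr1:90766860-90844001), which encodes the largest chain of type VI, had 6.81 and 6.66 at P0 at chr1:90843813-90844307, but a peak in P8 library B alone, at 4.36. P8 library A had no peak there, so the site was not tested.

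Col15a1 (gene ID 12819, chr4:47207655-47313167, plus strand) resembled Col6a3 in this. Its start site, chr4:47207900-47209023, had 6.85 and 6.44 at P0, no peak in P8 library A and one of 5.05 in P8 library B. The peaks there were 1124 and 959 bp long at P0 and 173 bp in P8 library B. Col18a1 (gene ID 12822, chr10:77052178-77166530) has 2 listed starts 52.8 kb apart, and both carried accessible sites at P0. The outer start, chr10:77166330-77166668, had 7.45 and 5.95 at P0 and 4.45 and 4.25 at P8 (log2 difference 0.34 ± 0.20, adjusted p = 0.298), and the strongest P8 peaks within 1 kb of it reached 4.94 and 4.68. The inner start, chr10:77113648-77113799, had weak peaks of 4.03 and 4.34 in the P0 libraries and none at P8.

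Among the listed starts, only that of Col8a1 (gene ID 12837, chr16:57624256-57754737) had passages that overlapped in the strongest peak within 1 kb. The listed start itself carried a peak in P0 library A alone, at 2.85, but a site 442 bp upstream, chr16:57755179-57755928, had 10.4 and 8.38 at P0 and 9.27 and 9.13 at P8. The passages overlapped there, and the log2 difference was −0.25 ± 0.17 (adjusted p = 0.380). No start is listed for Col12a1 (gene ID 12816, chr9:79598987-79721141) and Col14a1 (gene ID 12818, chr15:55307644-55520803). Within 3 kb of the upper end of Col12a1 all 4 libraries had a peak, with 6.32 and 8.22 at P0 and 5.16 and 6.26 at P8. The same held within 3 kb of the lower end of Col14a1, with 5.43 and 6.31 at P0 and 4.60 and 5.69 at P8. At the opposite end of both genes P0 library A alone had a peak, at 3.73 in each. By the mean of the P0 libraries the order of the starts was Col6a2, Col8a1, Col4a1 with Col4a2, Col6a1, Col6a3, the outer start of Col18a1, Col15a1 and the inner start of Col18a1. Col6a2, Col8a1 and the inner start of Col18a1 did not overlap their neighbours in this order, while the neighbours from Col4a1 to Col15a1 overlapped.

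**Figure D4:**
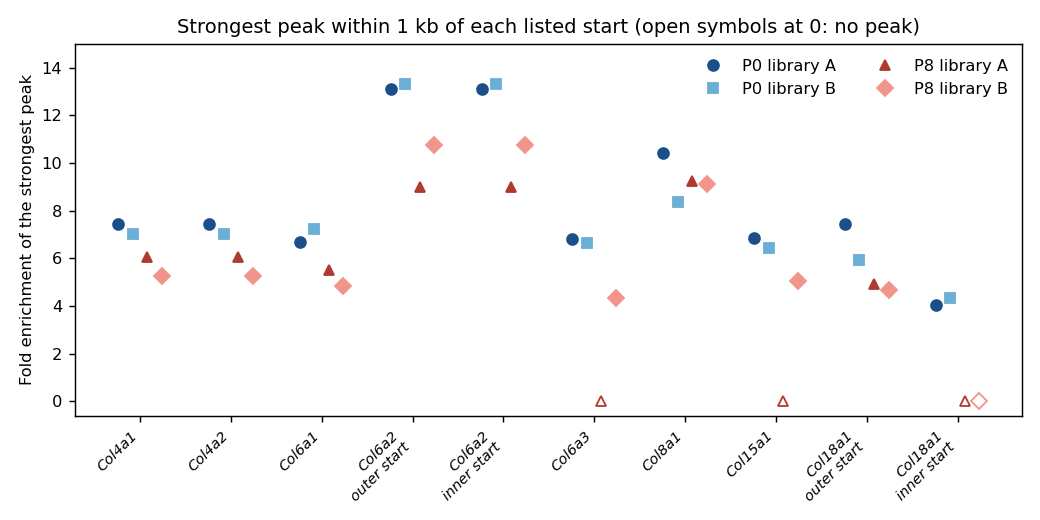
Fold enrichment of the strongest peak within 1 kb of each of the 10 listed starts (y axis, not centred), with 1 symbol for each library and an open symbol at 0 where no peak was called. Col6a2 is highest in every library except P8 library A, in which Col8a1 stands slightly above it (9.27 against 8.99), and the open symbols are P8 library A at Col6a3 and Col15a1 and both P8 libraries at the inner start of Col18a1.

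Differences between the passages were tested at the 98 sites with a peak in all 4 libraries. Fold enrichment was higher at P0 at 5 of them and higher at P8 at 5 (limma, FDR 0.05), against 3.74% and 6.20% of 55890 sites of the genome. The median log2 difference was −0.07 over the 98 sites and −0.07 over the genome, and both counts were near the background. The split moved with the centring. Without it, 14 of the 98 sites were higher at P0 and 0 at P8 (4 of them at an unadjusted p under 0.05), against 11.8% and 1.08% over the genome. Quantile normalization gave 5 and 0 (10 at an unadjusted p under 0.05), against 3.12% and 2.45% over the genome. The calls also fell when either P0 library was left out. Without P0 library A no site was called in either direction here or in the genome (limma, 0 and 0 of 99 sites, with 6 and 9 at an unadjusted p under 0.05). Without P0 library B 1 site was higher at P0 and 0 at P8 (9 and 10 at an unadjusted p under 0.05), against 0.316% and 0.426% over the genome. The log2 differences kept their sign. At the 5 sites higher at P0 they ran from 0.72 to 1.12 without P0 library A, against 0.56 to 1.12 with all libraries. At the 5 sites higher at P8 they ran from −1.08 to −0.64, against −0.83 to −0.72. Why the calls were lost was not tested. Without P8 library A the counts were 6 and 2 of 119 sites, against 3.53% and 4.67%. Sites with a peak in fewer than 4 libraries could not be tested in this way.

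All 5 sites higher at P0 lay inside genes of the group, 3 of them in Col6a3 and 1 each in Col4a1 and Col18a1. They were strong sites at P0, with mean fold enrichments from 9.04 to 18.4, against 4.10 to 9.36 at P8. The site with the highest P0 mean of all 280 was among them. It lies inside Col18a1, which encodes the collagen that yields endostatin, at chr10:77142335-77142702, 23828 bp downstream of the outer start. Its fold enrichment was 17.3 and 19.6 at P0 against 8.90 and 9.82 at P8. All P0 values exceeded all P8 values, and the difference was 0.71 ± 0.14 on the log2 scale, or 1.63-fold (adjusted p = 0.00588). It kept its call in 8 of 10 alternative fits and lost it without P0 library A (adjusted p = 0.110) and without P0 library B (adjusted p = 0.101).

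Col6a3 carried 4 of the 10 calls within 27.9 kb of its gene body. At chr1:90775533-90776040 the fold enrichment was 10.7 and 10.4 at P0 against 3.46 and 4.74 at P8, a difference of 1.12 ± 0.20 or 2.17-fold (adjusted p = 0.00369), which was the largest of the 98 sites. At chr1:90790165-90790677 it was 9.44 and 8.85 at P0 against 3.96 and 4.60 at P8, or 1.78-fold (adjusted p = 0.0137). At chr1:90800433-90800776 it was 8.92 and 9.16 against 3.78 and 4.88, or 1.74-fold (adjusted p = 0.0172). The P0 and P8 values did not overlap at any of the 3 sites. Their P8 peaks were weak, with summit pileups of 6 and 9, 7 and 9, and 8 and 12 tags, against 25 to 36 tags at P0. In the order given, the sites kept their calls in 8, 7 and 6 of 9 alternative fits. The fourth call lay 2.47 kb further on and went the other way. At chr1:90803248-90803426 the libraries had 3.57 and 4.22 at P0 and 6.13 and 5.02 at P8 (log2 difference −0.78 ± 0.21, adjusted p = 0.0235). That call was kept in 4 of 9 alternative fits.

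At the type IV pair, the strongest site in Col4a1 was higher at P0. This site, chr8:11260011-11260760, 52066 bp downstream of the start, had 14.1 and 16.9 at P0 and 7.68 and 9.73 at P8 (0.56 ± 0.15, 1.48-fold, adjusted p = 0.0285). Inside Col4a2, chr8:11357891-11358115 was higher at P8, with 4.89 and 4.19 at P0 and 7.42 and 6.02 at P8 (−0.83 ± 0.21, adjusted p = 0.0199). A further site higher at P8, chr8:11476764-11477331, had 5.87 and 4.61 at P0 and 7.03 and 7.74 at P8 (−0.77 ± 0.20, adjusted p = 0.0220). It lies in the neighbouring gene Rab20, beyond the end of Col4a2, and belongs to the window by distance only. The site with the highest fold enrichment in the Col4a2 window, from 12.5 to 19.2, likewise lay at another gene, Naxd.

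Col18a1 had 2 sites higher at P8 as well. At chr10:77116547-77116803, 2842 bp upstream of the inner start, the fold enrichment was 4.60 and 4.72 at P0 against 6.38 and 6.35 at P8 (−0.72 ± 0.20, adjusted p = 0.0283). At chr10:77201974-77202220, 35444 bp upstream of the outer start, it was 6.30 and 4.02 at P0 against 6.38 and 7.99 at P8 (−0.78 ± 0.22, adjusted p = 0.0341). All 5 sites higher at P8 were of modest strength, with mean fold enrichments from 3.90 to 5.24 at P0 and 5.57 to 7.38 at P8. None of these 5 passed without centring or with quantile normalization, although each kept its direction.

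**Figure D5:**
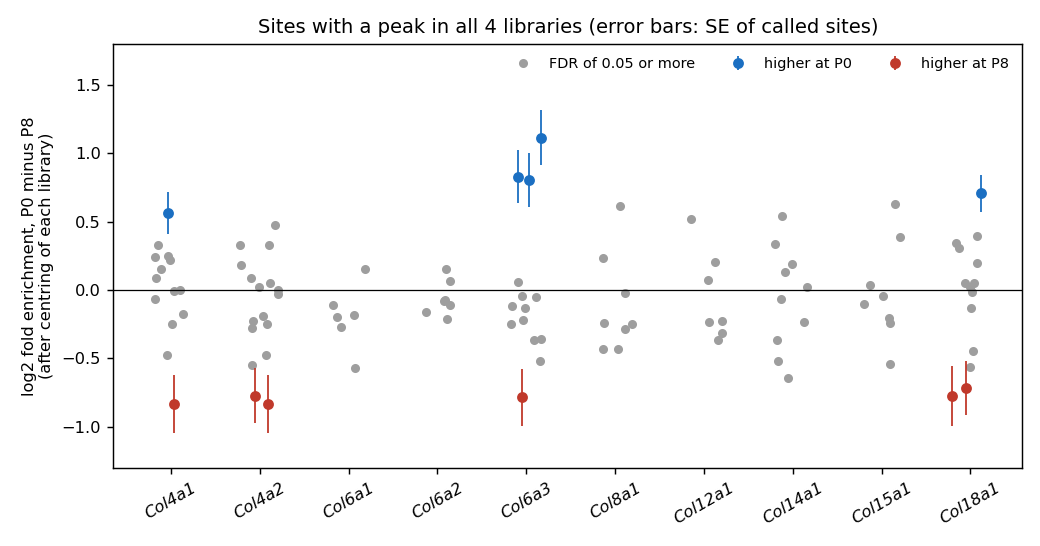
Difference in log2 fold enrichment between P0 and P8 after centring (y axis, P0 minus P8) at every site with a peak in all 4 libraries, by gene. Coloured points passed FDR 0.05, with their SE as bars. The 3 blue points of Col6a3 lie between 0.80 and 1.12, and the site shared by the Col4a1 and Col4a2 windows at −0.83 is drawn in both columns.

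No site was called in fold enrichment at Col6a1, Col6a2, Col8a1, Col12a1, Col14a1 or Col15a1 (limma, 0 of 6, 7, 8, 7, 10 and 8 sites), where 1, 0, 3, 1, 4 and 2 sites had an unadjusted p under 0.05. The strongest sites at these genes gave the following values. At Col6a2, chr10:76633981-76634843, 10351 bp upstream of the outer start, had 11.9 and 13.2 at P0 and 9.40 and 14.3 at P8, so that the passages overlapped. At Col14a1, which encodes a collagen of fibril surfaces in tendon and skin, chr15:55369983-55370472 had 10.3 and 10.1 at P0 and 9.39 and 12.6 at P8, again with overlap. The strongest site of the Col6a1 window, chr10:76668692-76669344, which is shared with Col6a2, had 8.95 and 8.90 at P0 and 7.38 and 8.66 at P8, and that of the Col6a3 window, chr1:90729474-90729774, had 11.5 and 9.90 against 8.54 and 9.85. Neither passed the test (adjusted p = 0.722 and 0.873). The strongest sites in the windows of Col12a1 and Col15a1 lay at the neighbouring genes Cox7a2 and Tgfbr1, with 13.2, 13.6, 10.4 and 8.92 in the 4 libraries at the first and 10.8, 11.3, 10.8 and 10.3 at the second. Of the 280 sites, 228 had a member as their nearest gene and 52 another gene.

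The summed length of the peaks at a site was tested in the same way, relative to a shift of 0.45 on the log2 scale between the passages, and 2 of the 98 sites were longer at P0 (1.71% and 0.531% of the sites of the genome were longer at P0 and at P8). None was longer at P8 (limma, 15 at an unadjusted p under 0.05). Both lay inside the genes of the fibril-associated collagens. At chr9:79608029-79608653 in Col12a1 the peaks covered 625 and 557 bp at P0 against 73 and 180 bp at P8 (log2 difference 1.92 ± 0.38, adjusted p = 0.0442). At chr15:55417090-55417696 in Col14a1 they covered 567 and 586 bp against 78 and 173 bp (1.86 ± 0.36, adjusted p = 0.0416). The fold enrichment at P0 and P8 was 6.71 and 7.61 against 4.02 and 4.23 at the Col12a1 site and 9.79 and 8.62 against 4.94 and 5.56 at the Col14a1 site, and its difference missed the threshold (adjusted p = 0.101 and 0.0786). No length call was made without P0 library A or without P0 library B (limma, 10 and 9 sites longer at P0 at an unadjusted p under 0.05), whereas without P8 library A 12 of 119 sites were longer at P0 and 7 at P8 (9.14% and 5.42% over the genome), and without P8 library B 16 and 7 of 106 (11.4% and 10.9%).

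Other genes of basement membranes and network collagens, a list of 45 of which 44 were in the gene table, were read in the same way. They include the laminins, the other chains of types IV, VI and VIII, nidogens, perlecan, collagen receptors and the enzymes that modify collagen. Of their 382 sites with a peak in all 4 libraries, 14 were higher at P0 and 19 at P8, beside the 3.74% and 6.20% of all tested sites, and the median log2 difference was −0.10. At least 1 called site was found at 21 of the 44 genes, 12 with a site higher at P0 and 15 with a site higher at P8, 6 of them with both. Over 18645 protein-coding gene windows with a tested site these shares were 35.4%, 15.3%, 24.5% and 4.46%, but the windows of the 44 genes held more tested sites (a median of 8.5 against 6). The smallest adjusted p in the P0 direction were at Lamb3, a laminin chain of epithelial basement membranes (log2 difference 0.95, adjusted p = 0.00563), Col6a5, a further chain of type VI (0.78, 0.00675), Col22a1 (0.88, 0.00835), Lama3 (0.72, 0.0157, in the neighbouring gene Ankrd29) and Lama4 (0.68, 0.0183). In the P8 direction they were at Lama1 (−0.80, 0.00133), Fbln1, which encodes the basement membrane protein fibulin-1 (−1.33, 0.00162), Col4a3 (−1.11, 0.00356), Lamb3 (−1.07, 0.00436) and Col19a1 (−0.94, 0.00628, at the neighbouring gene Col9a1). The Lama1 site had a fold enrichment of 14.9 and 16.5 at P0 and 22.6 and 22.7 at P8, and its P8 values exceeded every value at the 10 genes, the highest of which was 19.6. Calls in both directions within the window of 1 gene, as at Col4a1, Col6a3 and Col18a1, were seen at Col4a3, Col4a4, Lama3, Lamb3, Fbln1 and Antxr1.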

How the data were processed

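Tables of ATAC-seq peaks from 2 P0 and 2 P8 libraries of mouse chondrocytes were used. The submitters' processing notes name Bowtie2, MACS2, ChIPseeker, DiffBind and HOMER without versions and the build mm10. The authors called peaks in each library with MACS2 at default settings. For each peak they deposited its length, the summit pileup as a signal in unscaled tags, the fold enrichment relative to local background, and a −log10 p-value with its −log10 q-value. A deposited table of the authors' own DiffBind comparison, with a log2 fold change, a p-value and an FDR for each site, was not used. Peak names separate the libraries but carry no replicate number. No column of per-sample values was left unused (0 columns).

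Peaks of the 4 libraries that overlapped by at least 1 bp were joined into sites, and sites were placed on RefSeq genes of GRCm38.p6, with windows of 50 kb. Exons, introns and UTRs were not used here. At sites with a peak in all 4 libraries, log2 fold enrichment of the strongest peak and log2 summed length were centred on the median of each library and tested with limma (trended empirical Bayes) over all 55890 such sites, with Benjamini-Hochberg adjustment and FDR 0.05. Each printed adjusted p comes from these fits, and ± on a log2 difference is its SE. For peak numbers, an exact permutation test (two-sided) was run over the libraries. Depth was read from the local background, computed from pileup and fold enrichment. At matched background, peaks with a −log10 p of at least 3.38 at the lowest background were kept.

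Alternatives were no centring, quantile normalization, a −log10 q of at least 5, matched background, overlap of at least 50% of the shorter peak, the summit pileup, the strongest peak's length, windows of 0 and 10 kb, 1 library as enough for a passage, and each library left out. For each gene the text names the site at the start, the site of highest mean fold enrichment, up to 3 sites in each direction that passed, and up to 2 of the strongest sites seen in 1 passage alone, and of the other genes those with the 5 smallest p in each direction. Members, lists and this rule were chosen with earlier results of these data known. The limma script was tested on simulated data. The tools were R 4.3.3 with limma 3.58.1, and Python 3.11.15 with pandas 2.3.3, numpy 2.4.6, matplotlib 3.10.9 and scipy 1.17.1.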

Additional observations from a re-analysis of the deposited data

How the results depend on the processing

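No paired analysis was possible because the peak names carry no replicate number. In fold enrichment, where 5 sites were higher at each passage (P0 given first), no centring gave 14 and 0, quantile normalization 5 and 0, peaks with a −log10 q of at least 5 gave 2 and 2 (2.68% and 4.4% over the genome), the pileup at the summit 10 and 18 (8.90% and 13.8% over the genome), and windows of 10 kb left 3 higher at P8. Leaving out 1 library gave 0 to 6 higher at P0 and 0 to 7 higher at P8. For length, beside 2 longer at P0 and 0 at P8, no centring gave 9 at P0 (5.65% over the genome). Peaks with a −log10 q of at least 5 gave 0 at P0 (0.122% over the genome). The length of the strongest peak gave 0 here and 0 of 55890 sites over the genome. In these last 2 settings 4 and 14 sites were longer at P0 at an unadjusted p under 0.05 (limma). For length, leaving out 1 library gave 0 to 16 longer at P0 and 0 to 7 longer at P8. The 53 sites at P0 alone became 28 in the genes alone, 31 within 10 kb and 110 when 1 library sufficed, and 61 to 101 with 1 library left out. The 3 at P8 alone became 6 at a −log10 q of at least 5 (2.88%, against 1.59% over the genome), 26 when 1 library sufficed, and 4 to 17 with 1 library left out. The ratio of peaks per 10000 was 1.12 at a −log10 q of at least 5, 1.004 in the genes alone and 1.01 within 10 kb. At matched background it was 1.055, the ratio of peak numbers was 1.44, and the length calls stayed at 2 and 0. Fits without 1 library assume that the lone library of a passage varies like the others, and the cause of these changes was not tested. None of the 12 called sites reversed. Of the named sites that did not pass, and still did not, these changed sign. Without centring the log2 difference was 0.22 at chr1:90729474 (Col6a3), 0.11 at chr10:76633981 (Col6a2), 0.16 at chr10:76668692 (Col6a1), 0.024 at the site upstream of Col8a1 and 0.068 at the Tgfbr1 site. At chr9:79719435, inside Col12a1 near its upper end, it was 0.048, and quantile normalization gave 0.072. This weak site, with fold enrichments of 3.41 and 3.19 at P0 and 3.29 and 3.09 at P8, is not the source of the values given above for that end. The pileup gave 0.15 at chr10:76633981 and 0.12 at the Tgfbr1 site. Leaving out 1 library gave −0.14 to 0.094 at chr1:90729474, −0.42 to 0.11 at chr10:76633981 and −0.055 to 0.23 at the Col4a1 and Col4a2 start. The Naxd site passed without centring, and chr10:76668692, the Cox7a2 site and chr15:55369983 passed with the pileup. Depth limits sites without a peak, which may lie below the caller's threshold.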
